A study of Mus musculus with 8 samples.

Results

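The fatty acid elongases and desaturases described here are 9 mouse genes, Elovl1, Elovl2, Elovl3, Elovl5, Elovl6, Fads1, Fads2, Scd1 and Scd2, taken by symbol from the 55401 gene identifiers of the count table. All 9 passed the filter on low counts that left 17669 genes for testing. The livers came from NOD Scid Gamma (NSG) mice, an immunodeficient strain that accepts human tumour cells, each host carrying a subcutaneous xenograft of a human colorectal cancer line. The study compared 4 libraries from hosts of Colo201, which it describes as a high FGF19 line, with 4 from hosts of HCT116, a low FGF19 line, to look for effects of tumour-derived FGF19 on the liver. The intestinal hormone FGF19 acts on hepatocytes, where it restrains bile acid synthesis. Within each line 2 libraries were labelled male (Colo201 2L and 2R, HCT116 1L and 1R) and 2 female (Colo201 4L and 4R, HCT116 3L and 3R). There was no tumour-free host, and neither line was studied at more than 1 level of FGF19, so the hormone and every other property of the lines cannot be told apart. The sources used here give neither the age of the mice nor whether the L and R libraries of 1 number are separate mice. The p-values therefore measure only how these libraries vary, which may be technical.

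Elongases of the ELOVL family carry out the condensation step that lengthens a fatty acyl-CoA in the endoplasmic reticulum, and the other enzymes of the cycle are shared among them. Desaturases insert a double bond with electrons passed on by cytochrome b5 and its reductase: stearoyl-CoA desaturases make monounsaturated fatty acids, and the FADS enzymes act with ELOVL2 and ELOVL5 to turn dietary essential fatty acids into long polyunsaturated ones. In the liver many of these genes are known targets of the lipogenic regulators SREBP-1c and LXR and of PPARα.

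The libraries held 61347603 to 65457482 estimated counts each, with 19370 to 20272 genes above 0. The sex labels went against the data in all 8 libraries: Xist, the RNA of the inactive X chromosome, ran from 253.0 to 365.7 CPM (counts scaled to the library total, with TMM factors) under the male label and from 0.276 to 0.805 CPM under the female label, while the Y-linked Ddx3y was at 0 in all 4 libraries of the male label and reached 37.6 to 63.5 CPM under the female label. Sex is therefore used only as labelled. Summed hepatocyte markers were at 135200 to 176700 CPM in Colo201 and 116800 to 154300 CPM in HCT116 hosts, with 2 of 10 genes called higher in Colo201. Stellate cell and fibroblast markers summed to 283.5 to 294.0 against 208.0 to 310.6 CPM, with 1 of 10 called higher. Summed cholangiocyte markers were at 50.4 to 99.2 CPM against 43.8 to 53.0 CPM, and 1 of their 9 tested genes was called higher. No gene of the other 5 marker lists was called between lines, where 2.48% of all genes tested were called higher and 2.3% lower. The part of the markers in the line differences was not tested. Colo201 4R stood apart in the cholangiocyte markers Krt19, at 25.9 CPM against 0.501 to 2.17 CPM in the other 7 libraries, and Epcam, at 11.99 CPM against 0.851 to 1.42 CPM. Its Krt7 (0.794 CPM) and Krt23 (13.9 CPM) lay within the other 7 (0.0677 to 0.820 and 0.319 to 32.6 CPM). Colo201 4R also had the lowest summed Kupffer cell (166.8 CPM) and endothelial markers (185.7 CPM) of all 8 libraries. It was also the Colo201 library with the lowest Elovl1, Elovl2, Elovl6, Fads1 and Fads2, and the tests were repeated without it. Of the 8 adipocyte markers, Lep, Ucp1 and Cidea were at 0 in every library, Adipoq, Plin1, Retn and Cfd reached at most 0.322 CPM, and Car3, which hepatocytes also express, was at 751.5 to 2252 CPM. In bulk RNA, fewer cells of a type and less RNA per cell cannot be told apart.

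Between the lines, 3 of the 9 members were higher in Colo201 hosts (Elovl1, Elovl6 and Fads1), 1 was lower (Elovl3) and 5 did not pass (edgeR quasi-likelihood test with the sex label as a covariate, Benjamini-Hochberg adjusted p under 0.05). Over all genes tested, 2.48% were called higher and 2.3% lower. The fold changes of the called members were modest for Elovl1 (0.66 on the log2 scale), Elovl6 (0.70) and Fads1 (0.42), and larger for Elovl3 (-2.06). The 9 members had a median log2 fold change of 0.29, against 0.00 over all genes tested. The 4 libraries of one line stood wholly above the 4 of the other for 3 members, Elovl1, Elovl2 and Elovl6, against 12.3% of all genes tested with separated lines in either direction.

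**Figure D1:**
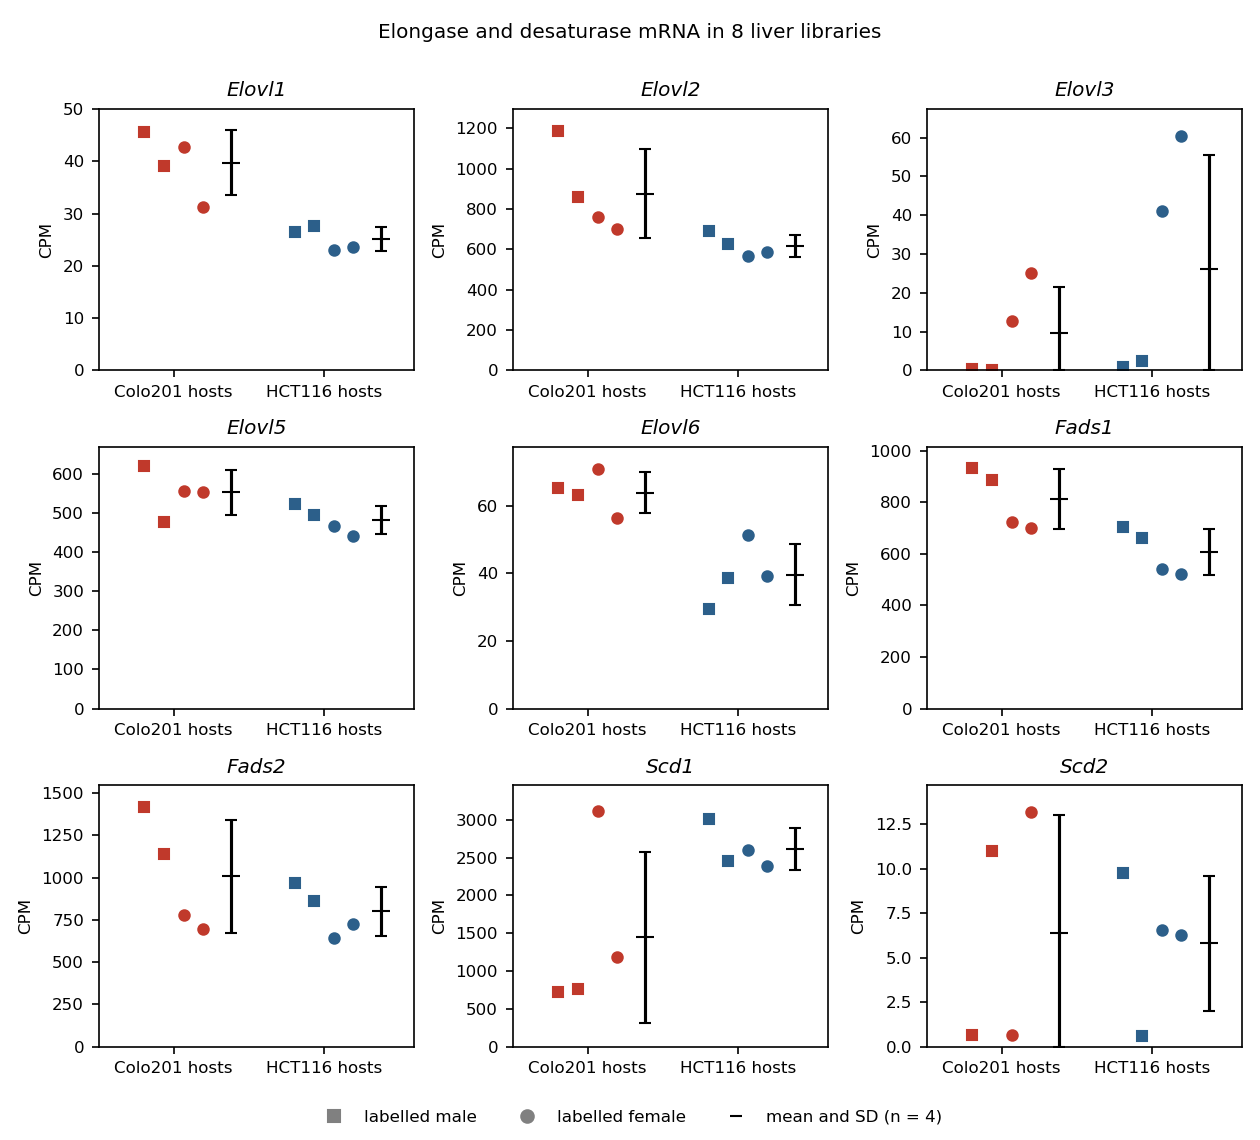
CPM (counts scaled to the library total, vertical axes, linear from 0) of the 9 members in each liver library of Colo201 hosts (red, n = 4) and HCT116 hosts (blue, n = 4). Squares are libraries labelled male, circles those labelled female, and black bars the mean and SD, cut at 0 for Elovl3 and Scd2. Elovl1, Elovl2 and Elovl6 show no overlap between the lines, and Elovl3 splits first by label.

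Compared per length, the order of mean levels over the 8 libraries was Scd1 at 380.1 FPKM, Fads2 at 249.6, Elovl2 at 171.2, Fads1 at 134.3, Elovl5 at 133.7, Elovl1 at 10.8, Elovl3 at 8.25, Elovl6 at 7.33 and Scd2 at 1.027 FPKM (fragments per kilobase, scaled to the library total). The ranges over libraries of Fads1 (96.5 to 172.9 FPKM) and Elovl5 (111.5 to 152.4) overlapped widely, as did those of Elovl1 (7.66 to 14.5) and Elovl6 (4.24 to 9.84) with that of Elovl3 (0.04 to 27.2). Scd1 (128.1 to 569.5) overlapped Fads2 (185.1 to 372.2), and Fads2 overlapped Elovl2 (131.6 to 259.8). The ranges of neighbours in this order thus overlapped, except that Elovl5 lay wholly above Elovl1 and Elovl6 wholly above Scd2. Compared within each library, Fads2 also lay above Elovl2, and Elovl2 above Fads1, in every library. All further levels are in CPM and are compared only within a gene.

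Saturated and monounsaturated chains are lengthened by Elovl1, Elovl3 and Elovl6. Elovl6 takes palmitate to stearate (ENSMUSG00000041220, GRCm38 chromosome 3, 129532355 to 129638495, plus strand). In Colo201 hosts its level was 65.4, 63.2, 70.8 and 56.4 CPM in libraries 2L, 2R, 4L and 4R. In HCT116 hosts it was 29.4, 38.6, 51.4 and 39.2 CPM in libraries 1L, 1R, 3L and 3R. Every Colo201 library lay above every HCT116 library, the nearest being Colo201 4R and HCT116 3L. The means were 63.9 ± 5.94 and 39.6 ± 9.0 CPM (SD, n = 4 each), and the log2 fold change was 0.70 (SE 0.15, edgeR adjusted p = 0.038). The ratio of means was 1.89 within the male label and 1.40 within the female label.

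Elovl1, which extends very long saturated and monounsaturated chains for sphingolipids (ENSMUSG00000006390, chromosome 4, 118428093 to 118432953, plus strand), was at 45.7, 39.2, 42.8 and 31.3 CPM in the Colo201 libraries in the same order. The HCT116 libraries held 26.5, 27.7, 23.0 and 23.5 CPM. The groups did not overlap, and Colo201 4R was the lowest of its line. The means of 39.7 ± 6.22 and 25.2 ± 2.25 CPM (SD, n = 4 each) gave a log2 fold change of 0.66 (SE 0.11, edgeR adjusted p = 0.0209), with ratios of 1.57 in libraries labelled male and 1.59 in those labelled female.

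The upstream sequences of these 2 members called higher are shown with that of Elovl5, which did not pass, as examples. They come from the RefSeq promoter table (GRCm38.p6), which holds entries for 5 of the 9 members, and stop before the first transcribed base of any annotated gene. For Elovl1 and Elovl5 this is the start of the gene itself, at 118428093 and 77917364. The Elovl6 window ends at 129532256, while that gene starts at 129532355, so the bases nearest to it are not shown. Capitals mark 3 motifs, read on both strands. They are the CCAAT box, with the letters CCAAT, the E-box, with the letters CACGTG, and the GC box, with the letters GGGCGG. In Elovl1 one GC box overlaps the CCAAT.
Elovl1, chr4:118427843-118428092, plus strand: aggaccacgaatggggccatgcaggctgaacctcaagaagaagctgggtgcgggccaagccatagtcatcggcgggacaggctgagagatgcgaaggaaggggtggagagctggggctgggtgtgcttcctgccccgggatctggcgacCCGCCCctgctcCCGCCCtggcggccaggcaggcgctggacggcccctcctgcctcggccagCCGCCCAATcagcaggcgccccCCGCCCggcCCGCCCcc
Elovl6, chr3:129532136-129532256, plus strand: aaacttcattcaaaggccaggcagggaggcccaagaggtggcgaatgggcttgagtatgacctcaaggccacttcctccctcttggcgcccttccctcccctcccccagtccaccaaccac
Elovl5, chr9:77917115-77917363, plus strand: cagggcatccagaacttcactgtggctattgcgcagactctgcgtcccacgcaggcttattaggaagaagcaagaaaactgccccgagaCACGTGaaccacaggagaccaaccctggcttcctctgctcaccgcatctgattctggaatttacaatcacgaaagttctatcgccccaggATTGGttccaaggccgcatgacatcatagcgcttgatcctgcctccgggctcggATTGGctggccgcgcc
In these windows Elovl1 held 1 CCAAT and 5 GC boxes, Elovl5 held 2 CCAAT boxes and 1 E-box, and none of these letters occurred in the 121 bases of Elovl6. Among the entries not shown, 1 of Elovl2, which also did not pass, held 5 GC boxes. A second entry of Elovl1 held 2 GC boxes and no CCAAT, and the entry of Fads2 held 1 GC box. Both strands were searched in the 250 bases upstream of every entry. Of 32851 such windows, 33.8% held a CCAAT, 32.7% a GC box, 6.02% the E-box and 1.05% the sterol element core TCACNCCAC. That core was in none of the 7 entries of the members. These matches are a description of letters in short windows, not of binding.

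Elovl3 extends saturated and monounsaturated chains and is known for its strong sex difference in mouse liver and its expression in brown fat (ENSMUSG00000038754, chromosome 19, 46131897 to 46135694, plus strand). Under the male label it was at 0.254 and 0.0891 CPM in Colo201 2L and 2R, and 1.003 and 2.536 CPM in HCT116 1L and 1R. Under the female label it was at 12.8 and 25.1 CPM in Colo201 4L and 4R, and 41.0 and 60.4 CPM in HCT116 3L and 3R. All 4 libraries labelled female, which carry the Y-linked transcripts, lay above all 4 labelled male, and within each label both Colo201 libraries lay below both HCT116 libraries. Over the 4 against 4 libraries without regard to label the lines overlapped.

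The difference between the lines was -2.06 on the log2 scale (SE 0.48, edgeR adjusted p = 0.0483), close to the threshold. The Colo201 mean was 0.0969 of the HCT116 mean in libraries labelled male and 0.374 of it in those labelled female. The 2 lowest libraries, Colo201 2L and 2R, rest on 15 and 6 estimated counts, so the first of these ratios rests on little RNA. The interaction of line and label, 1.97 on the log2 scale (SE 0.84), did not pass (edgeR adjusted p = 1.0).

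Of the polyunsaturated branch, Fads1 and Fads2 are neighbours on chromosome 19. Fads1 is the Δ5-desaturase (ENSMUSG00000010663, 10182888 to 10196877, plus strand). Its level was 933.8, 888.0, 722.0 and 701.5 CPM in Colo201 libraries and 703.3, 660.5, 539.5 and 522.5 CPM in HCT116 libraries. Only Colo201 4R and HCT116 1L crossed between the lines, and within each label both Colo201 libraries were higher. The means were 811.3 ± 117 and 606.5 ± 89.1 CPM (SD, n = 4 each). The log2 fold change was 0.42 (SE 0.07, edgeR adjusted p = 0.0162), and the ratio of means was 1.34 within either label.

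Fads2, the Δ6-desaturase that opens the pathway (ENSMUSG00000024665, 10062765 to 10101746, minus strand), was at 1416, 1138, 776.8 and 697.4 CPM in Colo201 and 968.6, 861.0, 644.1 and 724.5 CPM in HCT116 libraries. The lines overlapped, and the 2 highest libraries were the Colo201 libraries labelled male. The log2 fold change of 0.29 (SE 0.11) did not pass (edgeR adjusted p = 0.181). The mean log2 ratio of Fads1 to Fads2 was -0.26 ± 0.27 in Colo201 and -0.39 ± 0.10 in HCT116 hosts (SD, n = 4 each), a difference of 0.13 (exact two-sided permutation test, p = 0.371, 0.557 adjusted over 3 ratios; 4 against 4 cannot go below 0.0286).

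Elovl2, which makes the longest polyunsaturated chains, among them the precursor of docosahexaenoic acid (ENSMUSG00000021364, chromosome 13, 41182381 to 41220405, minus strand), was at 1189, 857.6, 758.3 and 699.3 CPM in Colo201 libraries. In HCT116 libraries it was at 690.0, 627.9, 564.6 and 587.2 CPM. The lines did not overlap, but the nearest libraries, Colo201 4R and HCT116 1L, differed little. The means were 876.2 ± 219 and 617.5 ± 55.0 CPM (SD, n = 4 each), and the log2 fold change of 0.49 (SE 0.12) missed the threshold (edgeR adjusted p = 0.0545). It passed under 5 of 12 other settings of the analysis, with adjusted p from 0.00459 to 0.163 over the 12.

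Elovl5, which acts one step earlier on shorter polyunsaturated chains (ENSMUSG00000032349, chromosome 9, 77917364 to 77984519, plus strand), was at 619.8, 477.0, 556.8 and 554.0 CPM in Colo201 and 523.1, 494.9, 466.5 and 441.8 CPM in HCT116 libraries. Colo201 2R fell among the HCT116 libraries. The log2 fold change of 0.20 (SE 0.10) did not pass (edgeR adjusted p = 0.277). The log2 ratio of Elovl5 to Elovl2 was -0.64 ± 0.30 in Colo201 and -0.36 ± 0.06 in HCT116 hosts, a difference of -0.28 (n = 4 each, exact two-sided permutation test, p = 0.143, 0.429 adjusted over 3 ratios).

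Scd1 is the main stearoyl-CoA desaturase of liver, making oleate from stearate (ENSMUSG00000037071, chromosome 19, 44394455 to 44407879, minus strand). In Colo201 hosts it was at 723.5, 762.8, 3114 and 1192 CPM. In HCT116 hosts it was at 3004, 2452, 2598 and 2387 CPM. Of the 4 Colo201 libraries, 3 lay below every HCT116 library, while Colo201 4L was the highest of all 8. The means were 1448 ± 1131 and 2610 ± 277 CPM (SD, n = 4 each), and the log2 fold change of -1.04 (SE 0.39) did not pass (edgeR adjusted p = 0.169). Without Colo201 4L it was -1.55 and passed (adjusted p = 0.0142), and in the other 7 fits with 1 library left out it did not pass.

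Within the male label the Colo201 mean of Scd1 was 0.272 of the HCT116 mean with both libraries lower, and within the female label it was 0.864 of it with overlapping libraries. The interaction was 1.67 on the log2 scale (SE 0.52, unadjusted p = 0.0138 in edgeR) and did not pass with all 8 libraries (adjusted p = 1.0). Without Colo201 4R it was 2.20, a fit that leaves Colo201 4L, the library with the most Scd1, as the only Colo201 library labelled female. No member passed the interaction with all 8 libraries by edgeR, DESeq2 or limma, 2 members had an unadjusted p under 0.05 by edgeR (Scd1 and Elovl3), and 5 genes, 0.0283% of those tested, were called.

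Scd2, the paralog known from brain and other tissues (ENSMUSG00000025203, chromosome 19, 44293674 to 44306864, plus strand), was at 0.677, 11.03, 0.657 and 13.2 CPM in Colo201 and 9.78, 0.619, 6.58 and 6.26 CPM in HCT116 libraries. Its values fell into a low level near that of Colo201 2L, shared by Colo201 4L and HCT116 1R, and a level about an order of magnitude higher in the other 5 libraries. Each level held libraries of both lines and of both labels. The log2 fold change was 0.14 (edgeR adjusted p = 0.957), and its sign depended on the setting (-0.57 by limma voom). The difference in the log2 ratio of Scd1 to Scd2 was -0.63 (8.72 ± 2.93 against 9.35 ± 1.74, SD, n = 4 each, exact two-sided permutation test, p = 0.629, also after adjustment over 3 ratios).

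Reads from sequence that the 2 Scd genes share can be hard to assign. The following stretch of their coding sequences is an example (GENCODE transcripts, coding bases 508 to 684 of Scd1 and 517 to 693 of Scd2, counted from the start codon, capitals at the 2 differing bases around a run of 147 identical ones).
Scd1: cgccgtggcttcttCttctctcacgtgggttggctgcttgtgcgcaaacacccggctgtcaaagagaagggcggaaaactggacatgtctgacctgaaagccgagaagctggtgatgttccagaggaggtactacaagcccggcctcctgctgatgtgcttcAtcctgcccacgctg
Scd2: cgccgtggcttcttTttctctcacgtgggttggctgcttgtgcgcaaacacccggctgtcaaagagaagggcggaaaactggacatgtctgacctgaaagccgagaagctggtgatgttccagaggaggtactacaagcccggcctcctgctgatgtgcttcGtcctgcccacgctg
The coding sequences of 1065 and 1074 bases were 90.3% identical over 1065 aligned bases. Of the 5461 distinct 50-base words in the Scd2 transcripts, 145 also occurred in those of Scd1. The level of Scd2 was far under that of Scd1, and the assignment of reads between the 2 genes was not tested. Scd2 was low in the library with the most Scd1, Colo201 4L, in that with the least, Colo201 2L, and in HCT116 1R. Pearson's r of the log2 CPM of Scd1 and Scd2 was -0.10 over the 8 libraries.

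**Figure D2:**
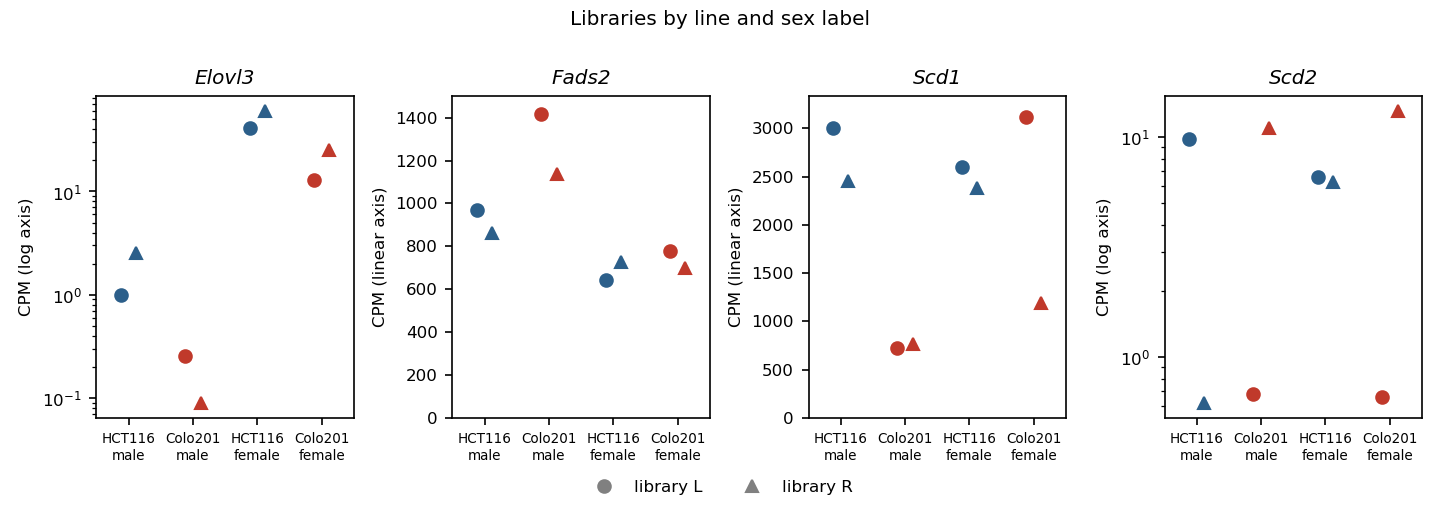
CPM of Elovl3, Fads2, Scd1 and Scd2 in the 8 libraries, by line (HCT116 blue, Colo201 red) and sex label, with circles for L and triangles for R libraries; the axes of Elovl3 and Scd2 are logarithmic, those of Fads2 and Scd1 linear from 0. Elovl3 is higher in the female label and lower in Colo201 within each label, Fads2 is higher in the male label, and Scd1 is low in both Colo201 libraries labelled male.

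Between the labels, with the line as a covariate, 2 members were higher in libraries labelled male (Fads1 and Fads2), 1 was lower (Elovl3) and 6 did not pass. Over all genes, 1.96% were called higher and 2.06% lower. Elovl3 averaged 0.971 ± 1.12 CPM (SD, n = 4) under the male label against 34.9 ± 20.6 CPM (SD, n = 4) under the female label. Its log2 fold change was -5.55 (SE 0.53, edgeR adjusted p = 0.000893). The fold change of Fads2 was 0.61 (SE 0.11, adjusted p = 0.0249) and that of Fads1 0.36 (SE 0.07, adjusted p = 0.0212). Elovl3 and Fads2 showed no overlap between labels, against 9.64% of all genes tested. The members' median log2 fold change was 0.07, against 0.00 over all genes.

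Other markers also moved with the label, where 1.96% of all genes tested were called higher and 2.06% lower. Summed Kupffer cell markers ran from 398.9 to 450.3 CPM under the male label and from 166.8 to 314.6 CPM under the female label, with 2 of 10 genes called higher. Summed endothelial markers were at 304.1 to 353.0 against 185.7 to 250.9 CPM, with 3 of 10 called higher. Summed hepatocyte markers were at 144900 to 176700 against 116800 to 137300 CPM, with 2 of 10 called higher. Summed neutrophil and lymphocyte markers were at 7.23 to 9.95 against 3.99 to 5.50 CPM, with none of 5 tested genes called. In the opposite direction, and so in that of Elovl3, the adipocyte list was at 751.5 to 824.1 CPM under the male label and 1621 to 2252 CPM under the female label, nearly all of it Car3, its 1 tested gene, which was called lower (log2 fold change -1.28). Of the erythroid list, 1 of 6 tested genes was also called lower under the male label. Its summed markers overlapped, at 575.0 to 1126 CPM under the male and 551.3 to 1310 CPM under the female label. The part of these markers in the label differences of Elovl3, Fads1 and Fads2 was not tested.

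**Figure D3:**
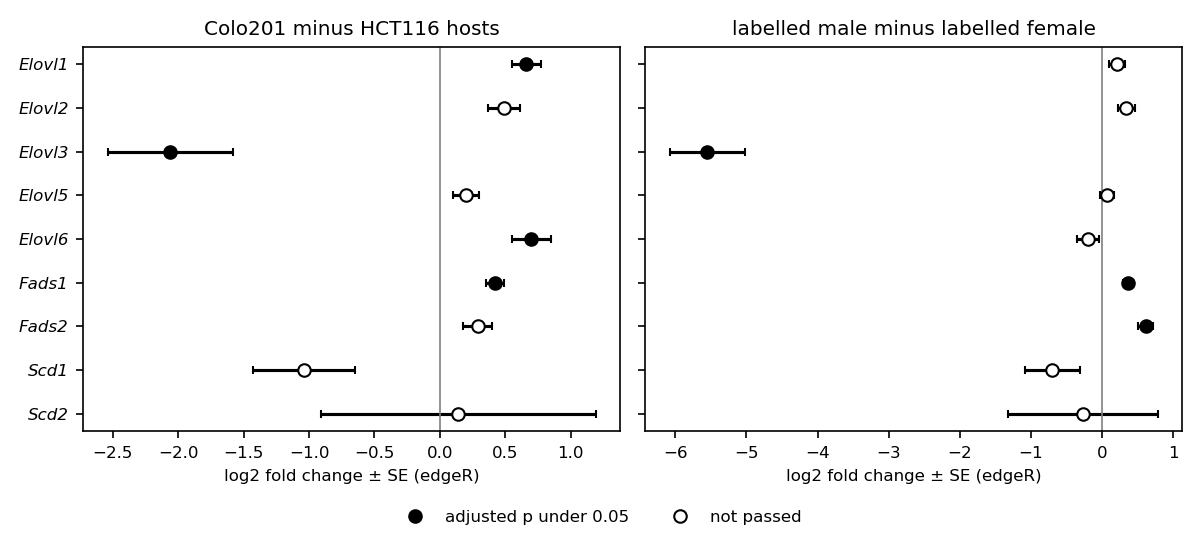
Log2 fold change with its SE (horizontal axes, different ranges) of each member between lines (left) and between sex labels (right), from edgeR over all 8 libraries; filled points passed an adjusted p of 0.05. Elovl1, Elovl6 and Fads1 are filled above 0 and Elovl3 below 0 between lines, and Elovl3 has the largest difference of the 9 in both comparisons.

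The calls between lines depended on single libraries. Elovl1 passed without Colo201 2R or 4R and lost its call without any 1 of the other 6 libraries (log2 fold change 0.55 to 0.74, adjusted p 0.0191 to 0.0738). Elovl6 passed without Colo201 4R or HCT116 3L and lost its call without any other (0.59 to 0.83, adjusted p 0.0338 to 0.106). Elovl3 passed only without Colo201 4R (-2.54 to -1.71, adjusted p 0.0356 to 0.129). Fads1 lost its call without Colo201 4L, HCT116 1R or HCT116 3L (0.40 to 0.44, adjusted p 0.032 to 0.0614). The direction of these 4 was kept in all 8 of these fits. None of the 4 passed without the sex label as a covariate or with the libraries of a title number summed, and over the 12 other settings the highest adjusted p was 0.118 for Elovl1, 0.143 for Elovl6, 0.169 for Fads1 and 0.696 for Elovl3. Between labels, Elovl3 passed without each library in turn (-6.20 to -5.20), Fads1 passed only without Colo201 2L or 4L (0.34 to 0.38, adjusted p 0.0409 to 0.0869), and Fads2 only without Colo201 2L, HCT116 1R or HCT116 3R (0.51 to 0.68, adjusted p 0.0314 to 0.0797). With the libraries of a title number summed, Elovl3 passed between labels (adjusted p = 0.0457), and Fads1 (0.163) and Fads2 (0.142) did not.

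**Figure D4:**
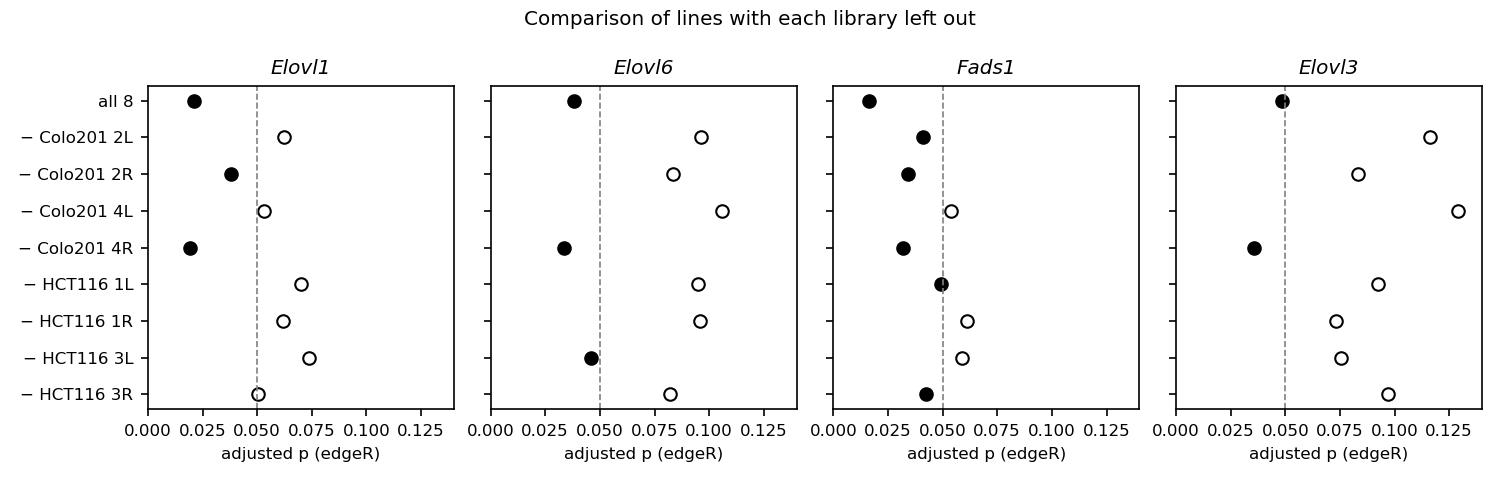
Benjamini-Hochberg adjusted p from edgeR (horizontal axes, linear) of the 4 members called between lines, with all 8 libraries and with each library left out in turn (rows); filled points lie under 0.05, the dashed line. Leaving out Colo201 4R keeps all 4 calls, and leaving out HCT116 1R keeps none.

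The genes around these enzymes were read from 8 lists of the pathway. For comparison with the counts of each list, 2.48% of all genes tested were called higher and 2.3% lower between lines. Of 8 other elongases and desaturases, 6 could be tested and none passed between lines. Elovl4 was at 0 in all 8 libraries and Scd4 in 7 of 8. Scd3 was at 0 in all 4 Colo201 libraries and at 0.136 ± 0.0978 CPM in HCT116 hosts, too little for a fold. The median log2 fold change was 0.18 over the 6, and 0.34 over the 5 without Scd3.

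Of the 6 genes that complete the elongation cycle, 1 was higher and 1 lower in Colo201 hosts, both 3-hydroxyacyl-CoA dehydratases. Hacd2 was at 81.6 ± 6.26 against 61.7 ± 3.13 CPM (log2 fold change 0.40, adjusted p = 0.0365). Hacd3 was at 163.0 ± 16.2 against 218.6 ± 3.38 CPM (-0.43, adjusted p = 0.025). The reductases Hsd17b12 (0.46, adjusted p = 0.18) and Tecr (0.31, adjusted p = 0.306) did not pass, and the list's median was 0.35. Among 6 electron donors only Cyb5r3, the cytochrome b5 reductase, was higher, at 574.2 ± 107 against 410.2 ± 54.6 CPM (0.48, adjusted p = 0.0198), and the median was 0.09. Cyb5a, cytochrome b5 itself, was at 836.2 ± 25.3 against 770.0 ± 63.5 CPM (0.12, adjusted p = 0.385).

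Of 10 genes of de novo lipogenesis, which supplies palmitate to Elovl6, 1 was higher and none lower, with a median of 0.38. Acly, which makes cytosolic acetyl-CoA, was at 224.7 ± 37.2 against 150.8 ± 22.6 CPM (0.58, adjusted p = 0.0484). Fasn, the fatty acid synthase, had a like fold change of 0.58 but did not pass (adjusted p = 0.0632). Acaca, the acetyl-CoA carboxylase, was at 82.6 ± 5.88 against 85.9 ± 11.9 CPM (-0.06, adjusted p = 0.813).

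Of 18 regulators, 1 was higher and 1 lower, with a median of -0.04. Srebf2, known for control of cholesterol synthesis, was at 98.3 ± 19.04 against 65.1 ± 9.55 CPM (0.59, adjusted p = 0.0105). Pparg, which drives lipid storage, was at 3.67 ± 1.83 against 10.9 ± 1.90 CPM (-1.70, adjusted p = 0.00561). Srebf1, the source of SREBP-1c, was at 176.1 ± 48.4 against 233.7 ± 32.8 CPM and did not pass (-0.41, adjusted p = 0.172). The carbohydrate sensor Mlxipl (-0.24, adjusted p = 0.281), the LXRα gene Nr1h3 (0.34, adjusted p = 0.0509) and Ppara (-0.67, adjusted p = 0.0642) did not pass either. All these values are mRNA levels and do not give the activity of the factors.

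The lists on the use and breakdown of acyl chains held only lower calls between lines, where 2.3% of all genes tested were called lower. Of 12 genes of peroxisomal oxidation, which shortens very long chains, none was called higher in Colo201 hosts (median -0.20). Ehhadh, the bifunctional enzyme, was lower at 283.3 ± 48.2 against 450.4 ± 86.1 CPM (-0.66, adjusted p = 0.024), and Acaa1b, a thiolase, was lower at 659.0 ± 100.1 against 1087 ± 162 CPM (-0.73, adjusted p = 0.0259). Of 12 acyl-CoA synthetases and thioesterases, Acsm1 was lower (-0.50, adjusted p = 0.0284; median -0.24). Of 14 acyltransferases and ceramide synthases, Lpin2, a phosphatidate phosphatase, was lower (-0.83, adjusted p = 0.0174; median -0.07).

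Of the list genes named between lines, Srebf2 (adjusted p 0.0224 to 0.0424) and Pparg (0.00857 to 0.0228) passed with each library left out in turn. Lpin2 lost its call in 2 of the 8 fits (0.0235 to 0.064), and Hacd2 (0.0596 to 0.113) and Acly (0.0548 to 0.132) lost it in all 8. Hacd3, Cyb5r3, Acsm1, Acaa1b and Ehhadh kept theirs in 1 to 3 of the 8. With the libraries of a title number summed, none of these 10 genes passed, Srebf2 (adjusted p = 0.12) and Pparg (0.127) included. Without the sex label as a covariate only Lpin2 passed (0.0348), and Srebf2 (0.103) and Pparg (0.0657) did not. Acly missed the threshold under 7 of the 12 other settings.

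**Figure D5:**
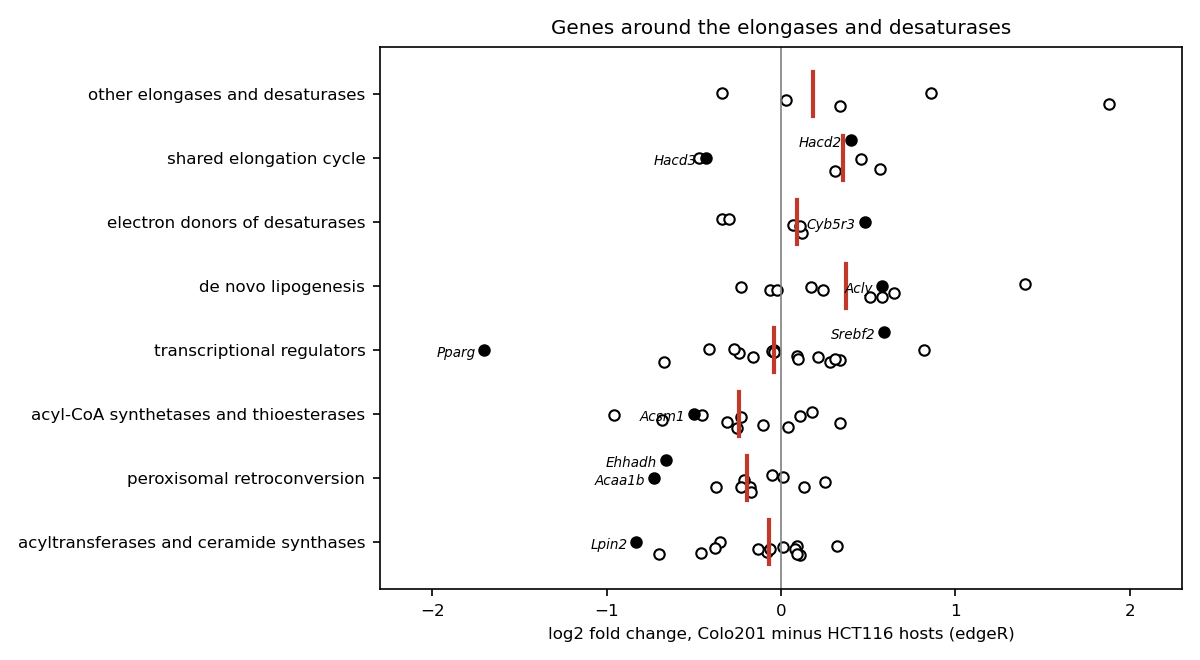
Log2 fold change between lines (horizontal axis, edgeR, Colo201 minus HCT116 hosts) of tested genes of the 8 pathway lists (rows; vertical offsets only separate the points), filled and named where the adjusted p was under 0.05, with the median over all tested genes of each list as a red bar. Scd3, at 0 in all Colo201 libraries, is counted in its median but not drawn.

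Between the labels, 9 list genes passed, where 1.96% of all genes tested were called higher and 2.06% lower. Lower in libraries labelled male were 2 of 6 electron donors, 1 of 12 synthetases and thioesterases and 1 of 12 peroxisomal genes. Higher there were 1 of 10 lipogenesis genes, 2 of 18 regulators, 1 of 12 peroxisomal genes and 1 of 14 acyltransferases and ceramide synthases. The other lists held none. Scp2, which carries sterols and lipids in peroxisomes, was lower in libraries labelled male (1526 ± 263 against 3337 ± 501 CPM, SD, n = 4 each, log2 fold change -1.12, edgeR adjusted p = 0.00416). Abcd2, a peroxisomal importer of very long acyl-CoAs, was higher there (135.7 ± 17.5 against 40.8 ± 15.4 CPM, 1.75, adjusted p = 0.00581). Cers6, a ceramide synthase, was also higher (28.0 ± 4.08 against 13.2 ± 2.997 CPM, 1.08, adjusted p = 0.0182). The others were Pnpla3 (2.65), Pparg (0.85), Srebf2 (0.41), Cyb5r3 (-0.37), Cyb5r1 (-0.59) and Acsl4 (-0.70), each with adjusted p between 0.0178 and 0.049. With each library left out in turn, Scp2 and Abcd2 passed in all 8 fits and Pparg, Cyb5r3 and Cyb5r1 in none. With the libraries of a title number summed, Scp2 (adjusted p = 0.0445) and Abcd2 (0.0262) passed and the other 7 did not.

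Across the 8 libraries, Pearson's r of log2 CPM between members is given as a description. In the polyunsaturated branch it was 0.92 for Elovl2 with Fads1, 0.88 for Elovl2 with Fads2 and 0.86 for Fads1 with Fads2. Elovl5, of the same branch, was at 0.75 with Elovl2, 0.69 with Fads1 and 0.50 with Fads2. Outside the branch, Elovl1 was at 0.88 with both Elovl2 and Fads1, so closeness did not follow the branches. Elovl6 was at 0.49 with Fads1 and 0.19 with Fads2, Elovl3 at -0.92 with Fads2, and Scd1 at -0.75 with Elovl2 and -0.73 with Fads1. These points share libraries, lines and labels, and no p is given.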

How the data were processed

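Liver RNA of 8 libraries was sequenced after a stranded mRNA preparation, per the labels' protocols. The authors deposited a table of estimated counts per gene, and a table of FPKM per gene. HISAT2, StringTie and GRCm38/mm10 are named, with no version, per the submitters' processing notes; how the estimated counts were made is not given in the sources used here. In 43.9 to 45.0% of values from 1 to 16 the deposited count was a multiple of 4 (the effect of division by 4 is among the alternatives).

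Symbols and GRCm38 positions came from GENCODE vM21 (55141 of 55401 identifiers matched). Counts, which were whole, were fitted with edgeR 4.0.16 in R 4.3.3: TMM scaling, filterByExpr over the 4 line and label combinations (17669 genes), glmQLFit and glmQLFTest, and Benjamini-Hochberg adjustment over all genes tested with a threshold of 0.05. Lines were compared with the label as a covariate, labels with the line, and the interaction as the line difference in the female label minus that in the male label. CPM are counts scaled to TMM-adjusted library totals. The 3 log2 CPM ratios were compared with exact permutation tests. Scripts were tested on simulated data. The alternatives were RLE scaling, library totals only, other filters, DESeq2 1.42.0, limma 3.58.1 (voom, and log2 FPKM with pseudocounts 1 and 0.1), counts divided by 4, the 20 most abundant genes left out, no covariate, libraries summed by title number, and each library left out.

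The members, lists and tests were chosen with earlier results of these data known. Named are all members, the list genes that passed (at most 6 a list), Srebf1, Srebf2, Mlxipl, Nr1h3, Ppara, Fasn, Acaca and Acly, and for each member but Scd2 the 2 genes of highest r (some results are not reported here, nor drawn in the plot of pathway lists); other genes named were chosen after their values were seen.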

Additional observations from a re-analysis of the deposited data

How the results depend on the processing

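Of the members called between lines (4 in the reported analysis), 2 passed by limma on log2(FPKM + 1), 0 without the sex label as a covariate and 0 with the libraries of a title number summed, and 0 to 4 passed with 1 library left out. The genes called between lines (845) became 1993 by DESeq2, 155 without the covariate, 3 when summed, and 182 to 549 with 1 library left out. Between labels, 3 members became 1 when summed and 1 to 3 with 1 library left out; the 710 genes became 1585 by DESeq2, 141 when summed, and 314 to 639 with 1 left out. For the interaction, 0 members became 0 to 1, and 5 genes became 52 by DESeq2, 2 by limma on either FPKM scale and 0 to 13 with 1 left out. Elovl6 and Elovl3 also missed the threshold between lines with library totals as the only scaling.

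Directions turned for Scd2 between lines (-0.57 by limma voom, -0.04 and -0.32 by limma on FPKM with pseudocounts 1 and 0.1, -0.89 to 1.09 with 1 library left out), between labels (-1.27 to 0.76) and in the interaction (-3.46 to 3.04). They also turned for the interactions of Elovl1 (-0.23 to 0.23) and Elovl3 (-0.64 by limma with pseudocount 1), for Acaca between lines (-0.14 to 0.05) and for the ratio of Scd1 to Scd2 (-1.80 to 0.24 with 1 library left out). The causes were not tested, except that summing leaves 4 samples and leaving out a library fewer. The interaction was not run on summed libraries, which leave 1 sample per combination. No paired analysis was possible because the lines share no title number. No library of any line stood apart for a member by Dixon's test, which was run on 18 groups of 4. At these depths, low values such as those of Elovl3 in Colo201 2L and 2R limit the precision of their ratios.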

Other observations

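Among 7467 genes with a mean of at least 10 CPM, the gene with the pattern most like that of each member but Scd2 over the 8 libraries was found by Pearson's r of log2 CPM, as a description. Elovl3 was most like Nox4, a NADPH oxidase (r = 0.996), which ran from 0.609 to 60.1 CPM, followed by the nucleotide sugar transporter Slc35d1 (0.985). Elovl2 was most like Apoa4, an apolipoprotein of triglyceride-rich particles (0.971), which averaged 618.7 CPM in Colo201 and 171.3 CPM in HCT116 hosts, and Pcsk6 (0.971). Fads1 was most like Cxxc5 and Pctp, a phosphatidylcholine transfer protein (0.987 each), and Pctp averaged 40.0 against 17.6 CPM. Fads2 was most like Ebp, a sterol isomerase of cholesterol synthesis, and Vnn1, a pantetheinase (0.97 each).

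Elovl1 was most like Agmat (0.993) and Ddt (0.989), Elovl6 most like Rbck1 (0.971) and Inf2 (0.966), and Elovl5 most like M6pr (0.956) and Ccar2 (0.95). Scd1 was most like Zfp36l2 (0.973) and Rragc (0.971), both with a higher mean in HCT116 than in Colo201 hosts. The points share libraries, lines and labels, and no p is given.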
